A study of Danio rerio with 12 samples.

Results

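The phagocyte NADPH oxidase subunits described here were the 4 genes cybb, cyba, ncf1 and ncf4, of 25281 genes with deposited values. They were selected by name, with no measured value in the selection, and all 4 were present in both deposited tables. RNA was sequenced from mCherry-positive macrophages and microglia sorted from dissociated zebrafish (Danio rerio) larval eyes, with at most 1000 cells in a sort. In the ablated groups (MTZ+), 10 mM metronidazole was given for 24 h from 5 to 6 days post-fertilisation (dpf) to remove by genetic ablation the pigmented support layer of the retina, the retinal pigment epithelium (RPE). The unablated groups (MTZ-) received no metronidazole, so the drug and the loss of the RPE cannot be told apart. Both conditions were collected at 2 days post-injury (dpi) and at 4 dpi. This gave 4 groups of 3 libraries each (ablated 2 dpi, unablated 2 dpi, ablated 4 dpi, unablated 4 dpi), 12 libraries in all. Larvae of every group had been kept unpigmented with 1.5X phenylthiourea between 0.25 and 5 dpf. Among the library titles, a larval age is named only in those of replicate 2 at 2 dpi. Ages at collection are therefore not given here. The sources used here do not give the transgenes that mark the sorted cells and make the RPE sensitive to the drug. Nothing in the labels says that the 3 libraries of a group came from separate pools of larvae, so p-values measure only how far these particular samples spread, and that spread may be technical.

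The phagocyte NADPH oxidase is a membrane enzyme complex that carries electrons from cytosolic NADPH across a membrane to oxygen and so makes superoxide, the source of hydrogen peroxide and other reactive oxygen species. Its membrane part is a pair: cybb encodes the catalytic flavocytochrome chain NOX2, and cyba encodes the smaller chain p22phox, which stabilises NOX2 and gives the cytosolic subunits a docking site. In resting cells the other subunits wait in the cytosol: ncf1 encodes the organiser p47phox, and ncf4 encodes p40phox, which binds a phosphoinositide on phagosomes. In neutrophils and macrophages the assembled enzyme acts against microbes and in redox signalling, and inherited loss of a subunit in humans causes chronic granulomatous disease.

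On the GRCz11 assembly, cybb (ENSDARG00000056615) lies on chromosome 11 from 29795155 to 29818866 on the minus strand. The gene for its membrane partner, cyba (ENSDARG00000018283), spans chromosome 18 from 31073265 to 31075619 on the plus strand. The organiser gene ncf1 (ENSDARG00000033735) lies on chromosome 5 from 61432541 to 61445697 on the minus strand, and ncf4 (ENSDARG00000040812) on chromosome 22 from 29204885 to 29252049 on the plus strand.

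The libraries held 19791633 to 38935355 counts in 16299 to 19601 detected genes. Macrophage identity markers were present throughout: 28 of 29 were detected in all 12 libraries, and the pan-macrophage gene mpeg1.1 stood at 929.9 to 1999.6 TPM (transcript abundance scaled by gene length and depth). Markers of other cell types were also detected. The summed photoreceptor markers took 0.0842% to 15.7% of counts, with the highest values, 15.7% and 13.7%, in unablated replicates 1 and 2 at 2 dpi. The summed epithelial markers took 0.167% to 2.201%. The summed neutrophil markers took 0.0283% to 0.134%, and 11 of 20 were detected in all 12 libraries. Of the defining neutrophil genes the peroxidase gene mpx had 0 to 16.8 TPM, with 0 counts in 6 libraries, and the lysozyme gene lyz reached no more than 1.15 TPM.

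All 4 subunit genes were detected in every library, with 585 to 41764 counts per gene and library. In TPM, cyba was the most abundant, with a median of 902 TPM over the 12 libraries and a range of 370.4 to 1759 TPM. The organiser gene ncf1 followed with a median of 279.8 TPM (158 to 753 TPM) and cybb with 137 TPM (44.6 to 236 TPM). The p40phox gene ncf4 was the least abundant, with a median of 36.2 TPM (19.5 to 55.6 TPM). The order cyba, ncf1, cybb, ncf4 held in 11 of 12 libraries. In the remaining one, ablated replicate 2 at 2 dpi, cybb at 228 TPM exceeded ncf1 at 158 TPM.

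Among the genes detected in each library, cyba lay between percentiles 98.0 and 99.6, ncf1 between 93.7 and 99.0, cybb between 86.9 and 96.6, and ncf4 between 76.3 and 87.3. The highest library exceeded the lowest 5.30-fold for cybb, 4.75-fold for cyba, 4.78-fold for ncf1 and 2.85-fold for ncf4. The extremes of cyba fell within a single group: unablated replicate 1 at 2 dpi held its lowest level and unablated replicate 3 its highest.

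**Figure D1:**
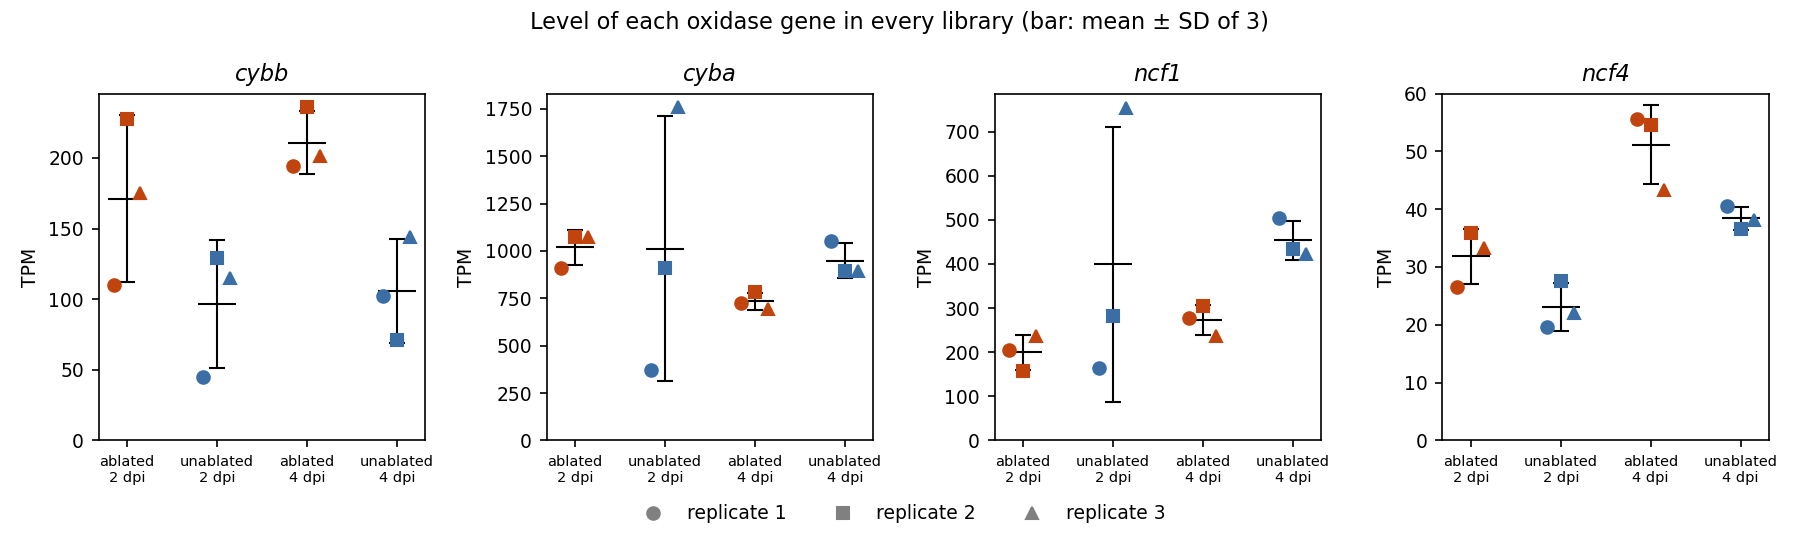
Level of each oxidase gene (y axis, TPM) in the 12 libraries, by group (x axis), with symbols for the replicate numbers and bars for the mean ± SD of 3 libraries. At 4 dpi the ablated libraries lie above the unablated ones for cybb and ncf4 and below them for cyba and ncf1, while at 2 dpi the groups overlap for all 4 genes.

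The first question was how loss of the RPE relates to oxidase expression in these cells. At 4 dpi the subunit transcripts went in different directions. The organiser gene ncf1 fell in ablated eyes, a call that was lost in 13 alternative fits. The catalytic gene cybb was 2.04-fold higher and cyba 1.27-fold lower without passing the test. For all 4 genes the 3 ablated libraries did not overlap the 3 unablated ones.

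Of the membrane pair, cybb stood at 195, 236 and 202 TPM in ablated replicates 1, 2 and 3 at 4 dpi, against 102, 70.9 and 144 TPM in the unablated ones. Every ablated library exceeded every unablated library, and the means were 211 ± 22.3 and 106 ± 36.7 TPM (SD, n = 3 each). The log2 fold change was 1.03 (SE 0.24, 95% interval 0.56 to 1.49, edgeR adjusted p = 0.0694). Its partner cyba stood at 725, 783 and 695 TPM in ablated libraries and at 1053, 893 and 896 TPM in unablated ones, again without overlap but in the other direction. Its log2 fold change was -0.34 (SE 0.10, interval -0.54 to -0.14, edgeR adjusted p = 0.122). DESeq2 called both genes (adjusted p = 0.000376 for cybb and 0.00819 for cyba), and limma voom called cybb (adjusted p = 0.0159).

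Of the cytosolic subunits, ncf1 stood at 277, 304 and 237 TPM in ablated replicates 1, 2 and 3 and at 504, 434 and 423 TPM in unablated ones. The highest ablated library lay below the lowest unablated one, and the means were 273 ± 33.9 and 454 ± 43.9 TPM (SD, n = 3 each). The gene fell by 0.71 on the log2 scale (SE 0.12, interval -0.94 to -0.48, edgeR adjusted p = 0.0356), which left it 1.64-fold lower in ablated eyes. DESeq2 and limma voom called it as well (adjusted p = 1.62e-06 and 0.00840). The call held with ablated replicate 2 left out (edgeR adjusted p = 0.0328) and was lost with any other library left out, with a log2 fold change of -0.74 to -0.64. The edgeR adjusted p was then 0.121, 0.107 and 0.0873 without unablated replicates 1, 2 and 3, and 0.111 and 0.141 without ablated replicates 1 and 3.

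The p40phox gene ncf4 stood at 55.6, 54.6 and 43.3 TPM in ablated libraries at 4 dpi, against 40.6, 36.5 and 38.1 TPM in unablated ones. The groups did not overlap, with the lowest ablated library just above the highest unablated one. The log2 fold change was 0.44 (SE 0.14, interval 0.17 to 0.72, edgeR adjusted p = 0.140), not past the threshold.

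At 4 dpi, then, edgeR called 1 of the 4 subunit genes, beside 3.71% of the 16313 genes tested (605 genes: 298 higher, 1.83%, and 307 lower, 1.88%). All 4 had an unadjusted p under 0.05, as did 20.7% of all genes, and all 4 had groups that did not overlap in TPM, as did 30.4% of all genes (15.2% in each direction). DESeq2 called 3 of the 4 subunit genes and 2304 of the 16313 genes, and limma voom 2 of the 4 and 1553. The median log2 fold change over all genes was -0.04. Whether fewer cells carried a transcript or each cell carried less of it cannot be told apart in bulk samples.

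**Figure D2:**
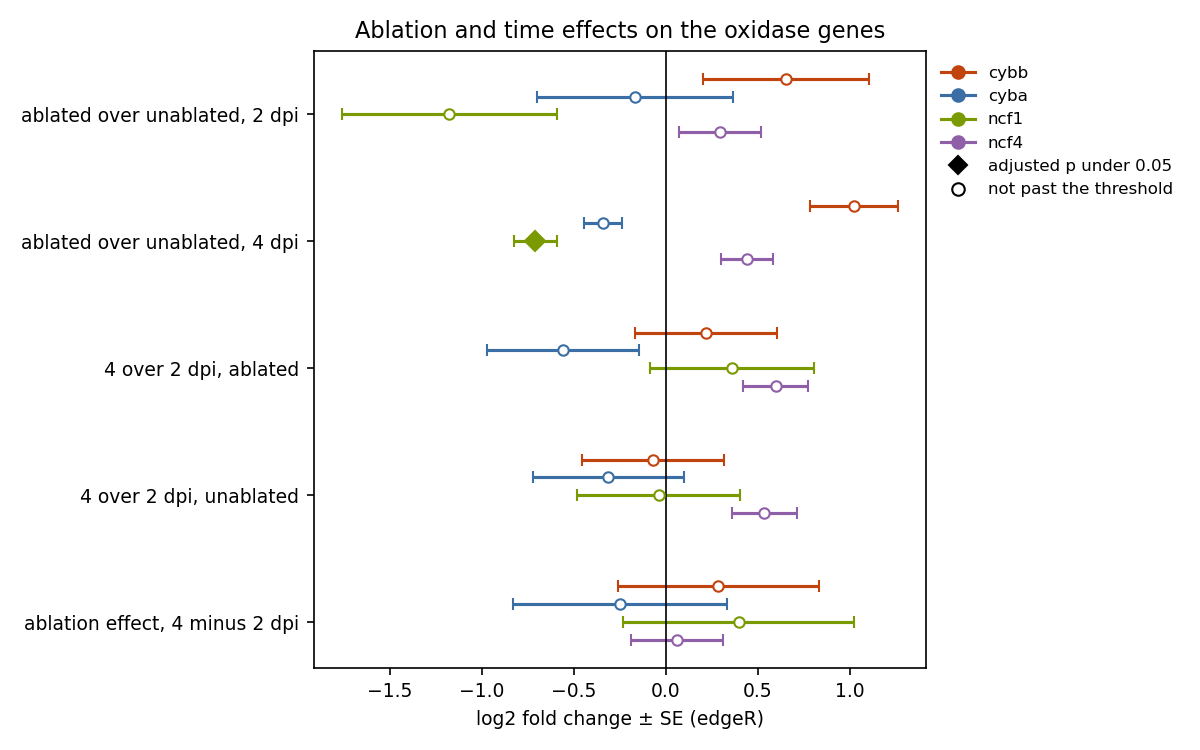
Log2 fold change (x axis) of each oxidase gene in 5 comparisons (y axis), with error bars for the standard error from edgeR, filled diamonds for an adjusted p under 0.05 and open circles otherwise. The 1 value past the threshold is that of ncf1, lower in ablated eyes at 4 dpi.

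Several marker lists differed with ablation at 4 dpi. Whether the sorted cells themselves or other cells carried that RNA cannot be told apart in bulk samples. The epithelial markers took 0.465%, 0.480% and 0.374% of counts in ablated replicates 1, 2 and 3, against 1.12%, 1.25% and 0.718% in unablated ones. Of 44 such markers 24 were detected in all 12 libraries and 40 were tested at 4 dpi, where 8 fell and 0 rose. The epithelial adhesion gene epcam stood at 113, 345 and 167 TPM in ablated libraries and at 1280.1, 1462 and 1418 TPM in unablated ones (-2.74 on the log2 scale, SE 0.38, edgeR adjusted p = 0.0286). Epithelial marker RNA and ncf1 were thus both lower in the same 3 libraries, and cyba lay in the same direction. With the summed epithelial share as a covariate in a fit of all 12 libraries, chosen after the values were seen, the log2 fold change of ncf1 was -0.08 (SE 0.23, edgeR adjusted p = 0.898) and that of cyba was 0.30 (SE 0.18, edgeR adjusted p = 0.439). In that fit cybb stood at 1.37 (SE 0.38, edgeR adjusted p = 0.109) and ncf4 at 0.55 (SE 0.18, edgeR adjusted p = 0.158). The fit of all 12 libraries without the covariate also lost the call of ncf1 (-0.71, edgeR adjusted p = 0.523). The epithelial share did not overlap between conditions at 4 dpi, so there the covariate cannot be told apart from ablation. The part of epithelial marker RNA in the subunit levels was not tested.

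The neutrophil markers took 0.104%, 0.0991% and 0.111% of counts in ablated libraries at 4 dpi and 0.0537%, 0.0747% and 0.0495% in unablated ones. The groups did not overlap, and of 16 neutrophil markers tested at 4 dpi 4 rose (nccrp1, csf3r, il6r and scpp8) and 0 fell. The peroxidase gene mpx had 7.50, 0.0166 and 0.441 TPM in ablated libraries and 0, 1.17 and 0 TPM in unablated ones. The part of neutrophil RNA in the levels of cybb and ncf4 was not tested. Mitochondrially encoded genes took 3.66% to 3.95% of counts in ablated libraries at 4 dpi, against 3.23% to 3.26% in unablated ones, and 13 of 13 had a log2 fold change above 0, 10 of them without overlap in TPM. The microglial markers took 2.84% to 4.79% in ablated and 4.58% to 6.92% in unablated libraries, with 3 higher and 2 lower of 15 called. The genes listed as lymphocyte and NK markers, cd3eap among them, took 0.00223% to 0.00356% in ablated and 0.00541% to 0.00648% in unablated libraries. Of 9 tested, 2 were lower, and which genes carried that share is not given here. RPE markers took 0.00182% to 0.0116% in ablated and 0.0113% to 0.0169% in unablated libraries, with 2 of 15 lower. Photoreceptor markers took 0.0996%, 4.21% and 0.0842% in ablated and 0.772%, 0.123% and 0.861% in unablated libraries, with 42 of 48 above 0 and 0 called by edgeR, DESeq2 or limma voom (0 at an unadjusted p under 0.05). The part of the mitochondrial, microglial, lymphocyte and RPE lists in the subunit levels was not tested. With the photoreceptor share as a covariate in the fit of all 12 libraries, the 4 dpi log2 fold change of ncf1 stood at -0.72 (edgeR adjusted p = 0.313) and that of cybb at 1.01 (edgeR adjusted p = 0.206). The macrophage identity markers took 2.49% to 2.89% in ablated and 2.49% to 2.65% in unablated libraries.

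**Figure D3:**
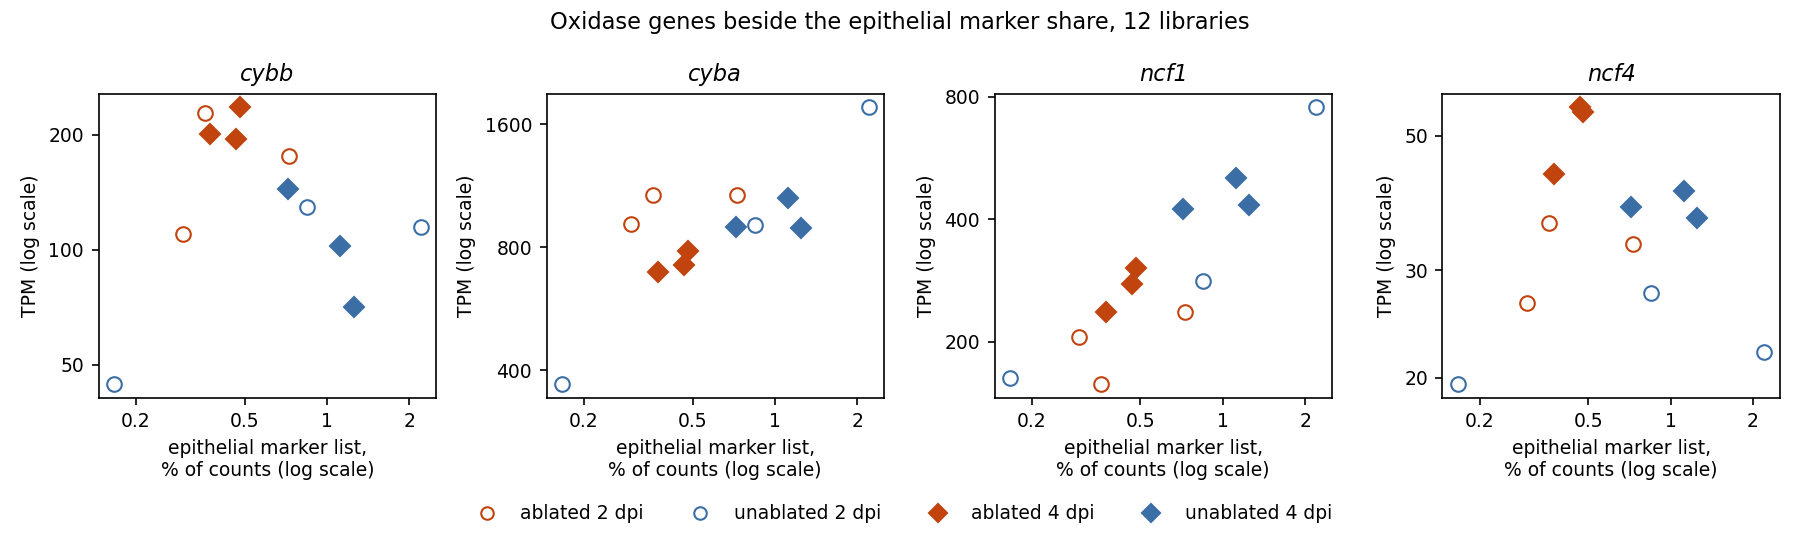
TPM of each subunit gene (y axis, log scale) beside the summed share of counts from epithelial markers (x axis, percent, log scale) in the 12 libraries. The 4 dpi libraries (filled diamonds) separate by condition on both axes for ncf1, with ablated libraries at the lower left, and unablated replicate 3 at 2 dpi (open circle, 2.201%) has the highest cyba and ncf1.

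Relative to the macrophage markers, 3 of these 4 genes separated in the same directions at 4 dpi. For every 1000 counts of the summed macrophage identity markers, cybb gave 17.0 to 23.9 counts in ablated and 7.13 to 13.6 in unablated libraries. cyba gave 15.3 to 19.3 counts in ablated and 20.6 to 25.7 in unablated libraries, and ncf1 gave 10.8 to 15.4 in ablated and 20.1 to 25.4 in unablated libraries. None of those 3 overlapped between conditions, whereas ncf4, at 2.05 to 2.88 in ablated and 1.88 to 2.12 in unablated libraries, did. The share of all genes without overlap on this scale was not counted. Of the 29 macrophage identity markers themselves, edgeR called 4 higher and 0 lower at 4 dpi. In TPM 11 of them were higher and 7 lower without overlap. With counts scaled in this way ncf1 had a log2 fold change of -0.81 and was no longer called (edgeR adjusted p = 0.0595).

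At 2 dpi the subunit genes did not separate by condition when libraries were not matched by date. The ratios within dates follow for each gene. cybb and ncf4 had positive and cyba and ncf1 negative log2 fold changes, but all 4 overlapped between the groups. edgeR called 0 of 4, with 0 at an unadjusted p under 0.05, and DESeq2 and limma voom called 0 as well. Over all 16048 genes tested, edgeR called 0 (0%), against 1474 by DESeq2 and 976 by limma voom. An unadjusted p under 0.05 was reached by 16.8% of genes, 28.5% did not overlap in TPM (22.1% higher and 6.35% lower in ablated eyes), and the median log2 fold change was -0.12.

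The catalytic gene cybb stood at 109.7, 228 and 176 TPM in ablated replicates 1, 2 and 3 at 2 dpi, against 44.6, 129 and 115 TPM in unablated ones. The ablated library was the higher within each replicate number, and at this time libraries that share a number also share a date in their titles. Within dates the ratio of ablated to unablated TPM was 2.46, 1.76 and 1.53. How many of all genes lay above 1 on every date was not counted. The log2 fold change was 0.65 (SE 0.45, 95% interval -0.23 to 1.54, edgeR adjusted p = 0.50005). With the date as a replicate block it was 0.74 (edgeR adjusted p = 0.164).

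The p22phox gene cyba stood at 912, 1072 and 1075 TPM in ablated libraries at 2 dpi and at 370.4, 908 and 1759 TPM in unablated ones. The spread within the unablated group, 1012 ± 700.0 TPM (SD, n = 3), covered the whole ablated group. Within dates the ratio of ablated to unablated was 2.46, 1.18 and 0.611, so the direction was not shared. The log2 fold change was -0.17 (SE 0.53, interval -1.21 to 0.88, edgeR adjusted p = 0.878), and without unablated replicate 3 it was 0.55 (edgeR adjusted p = 0.433).

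The organiser gene ncf1 stood at 205, 158 and 236 TPM in ablated libraries at 2 dpi and at 163, 282 and 753 TPM in unablated ones. Unablated replicate 3 stood far above the rest, as it did for cyba, and it also had the highest epithelial share. The ratio within dates was 1.26, 0.558 and 0.314. The log2 fold change was -1.18 (SE 0.59, interval -2.32 to -0.03, edgeR adjusted p = 0.381), and without unablated replicate 3 it was -0.28 (edgeR adjusted p = 0.625). The interval, a normal approximation, leaves out 0, though the unadjusted edgeR p was 0.0913. Epithelial markers took 0.299%, 0.359% and 0.727% of counts in ablated replicates 1, 2 and 3 and 0.167%, 0.848% and 2.201% in unablated ones. The ratio of ablated to unablated was above 1 for both ncf1 and the epithelial share in replicate 1, and below 1 for both in replicates 2 and 3. For cyba it was 2.46, 1.18 and 0.611, so in replicate 2 cyba was higher and the epithelial share lower in the ablated library. How many of all genes shared the directions of ncf1 was not counted. The part of epithelial marker RNA in these levels was not tested.

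ncf4 stood at 26.6, 35.8 and 33.2 TPM in ablated libraries at 2 dpi and at 19.5, 27.6 and 22.1 TPM in unablated ones, a ratio of 1.36, 1.30 and 1.50 within dates. Ablated replicate 1 lay below unablated replicate 2, so the groups overlapped. The log2 fold change was 0.30 (SE 0.22, interval -0.14 to 0.74, edgeR adjusted p = 0.526). Scaled to macrophage identity counts it was -0.09, and that scaling moved the median of all genes to -0.51.

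Marker shares also differed between libraries at 2 dpi. Photoreceptor markers took 2.01%, 0.325% and 0.114% of counts in ablated replicates 1, 2 and 3 and 15.7%, 13.7% and 0.145% in unablated ones. Macrophage identity markers took 2.46% to 2.56% in ablated and 1.34% to 2.41% in unablated libraries. Of 28 of these markers tested at 2 dpi, 20 were above 0, against 45.8% of all genes, with a median log2 fold change of 0.36. In TPM 11 were higher and 1 lower without overlap, against 22.1% and 6.35% of all genes. Per macrophage identity count, the ratio of ablated to unablated within dates was 1.35, 1.16 and 1.38 for cybb and 0.690, 0.369 and 0.284 for ncf1. On that scale cybb lay above 1 and ncf1 below 1 on all 3 dates. How many of all genes did either was not counted. The ratios for cyba were 1.35, 0.780 and 0.553, and those for ncf4 0.745, 0.858 and 1.36. Neutrophil markers took 0.0970% to 0.134% of counts in ablated and 0.0283% to 0.0328% in unablated libraries, and their part in the values of cybb and ncf4 was not tested. The gene mpx had 4.01, 0 and 16.8 TPM in ablated libraries and 0 in all 3 unablated ones.

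Ratios between subunit transcripts of the same library do not depend on how libraries are scaled to each other. They were chosen after the levels had been seen and are given without a test and without the ratios of other gene pairs as a background. ncf1 per cybb was 1.87, 0.692 and 1.35 in ablated replicates 1, 2 and 3 at 2 dpi and 3.66, 2.18 and 6.56 in unablated ones. At 4 dpi it was 1.43, 1.29 and 1.17 in ablated and 4.93, 6.12 and 2.94 in unablated libraries. The 6 ablated libraries thus all lay below the 6 unablated ones, and the group means were 1.30 ± 0.590 against 4.13 ± 2.23 at 2 dpi and 1.30 ± 0.126 against 4.66 ± 1.61 at 4 dpi (SD, n = 3 each).

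The organiser transcript also diverged from ncf4. ncf1 per ncf4 was 4.398 to 7.72 in ablated and 8.35 to 34.1 in unablated libraries at 2 dpi, and 4.98 to 5.56 in ablated and 11.1 to 12.4 in unablated libraries at 4 dpi. Within the membrane pair, cyba per cybb was 3.32 to 3.73 in ablated and 6.22 to 12.6 in unablated libraries at 4 dpi. At 2 dpi it overlapped, at 4.71 to 8.31 in ablated and 7.02 to 15.3 in unablated libraries. Across the pairs, cyba per ncf1 was 4.45 to 6.80 in ablated and 2.27 to 3.22 in unablated libraries at 2 dpi, and 2.58 to 2.93 in ablated and 2.06 to 2.12 in unablated libraries at 4 dpi. The ratio of cybb to ncf4 overlapped at both times, at 4.13 to 6.36 in ablated and 2.28 to 5.21 in unablated libraries at 2 dpi and at 3.50 to 4.66 in ablated and 1.94 to 3.78 in unablated libraries at 4 dpi. A ratio shows unequal change of its 2 genes and does not show which of them moved.

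**Figure D4:**
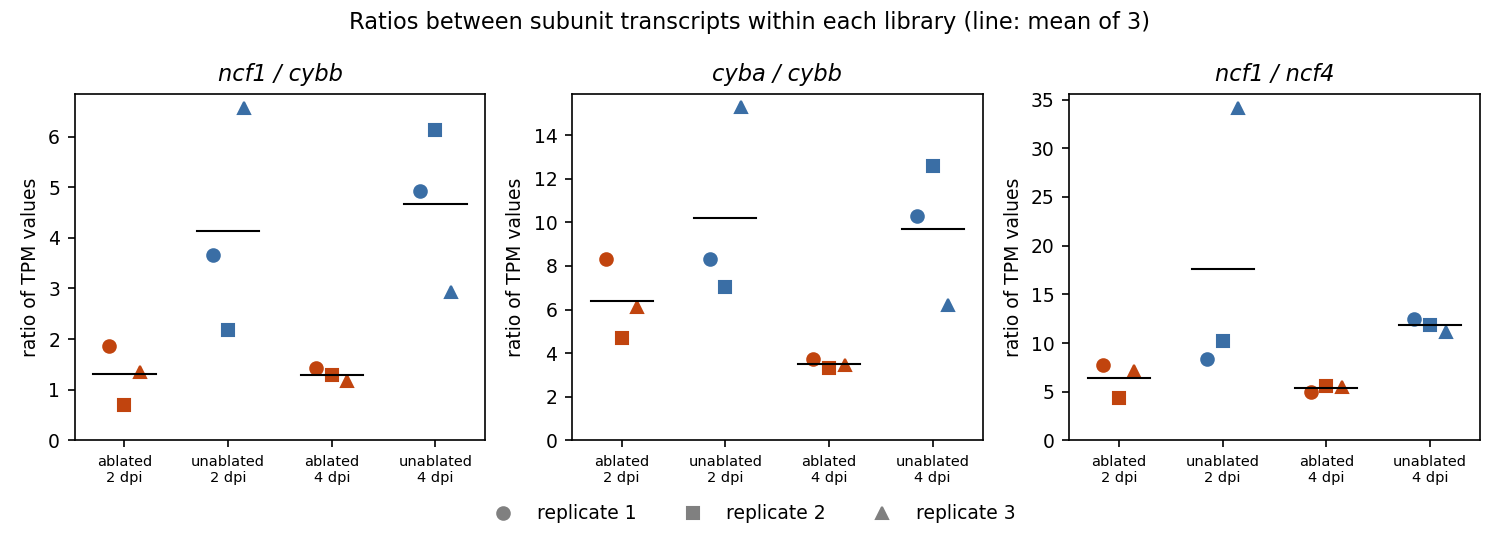
Ratio of TPM values between subunit transcripts of the same library (y axis) by group (x axis), with symbols for replicate numbers and lines for the mean of 3. For ncf1 per cybb and ncf1 per ncf4 all 6 ablated libraries lie below all 6 unablated ones, and for cyba per cybb the groups separate at 4 dpi.

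The second question was how the genes differed between the times. Time goes with larval age and with the date in the titles, and these cannot be told apart. No subunit gene passed the test in either condition. ncf4 had the smallest p in both, with higher levels at 4 dpi. In ablated eyes its 4 dpi libraries (55.6, 54.6 and 43.3 TPM) all exceeded those of 2 dpi (26.6, 35.8 and 33.2 TPM), with a log2 fold change of 0.60 (SE 0.18, interval 0.25 to 0.95, edgeR adjusted p = 0.131). In unablated eyes the 4 dpi libraries (40.6, 36.5 and 38.1 TPM) exceeded those of 2 dpi (19.5, 27.6 and 22.1 TPM) as well, with a log2 fold change of 0.54 (SE 0.18, interval 0.19 to 0.88, edgeR adjusted p = 0.181).

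In ablated eyes cyba was lower at 4 dpi, at 734 ± 45.2 TPM, than at 2 dpi, at 1019.5 ± 93.3 TPM (SD, n = 3 each), without overlap (log2 ratio -0.56, SE 0.41, edgeR adjusted p = 0.650). ncf1 stood at 273 ± 33.9 TPM at 4 dpi and at 199.6 ± 39.5 TPM at 2 dpi, where its highest library, at 236 TPM, lay just under the lowest of 4 dpi, at 237 TPM (0.36, SE 0.45, edgeR adjusted p = 0.856). cybb overlapped, at 211 ± 22.3 TPM at 4 dpi and 171 ± 59.2 TPM at 2 dpi (0.22, SE 0.39, edgeR adjusted p = 0.926). Of the 4 genes 0 were called by edgeR in ablated eyes, beside 1.29% of 18079 genes. One, ncf4, had an unadjusted p under 0.05, as did 14.1% of all genes, and 3 of 4 did not overlap, as did 25.5% (11.3% higher and 14.2% lower at 4 dpi). DESeq2 and limma voom each called 1, ncf4 (adjusted p = 0.00318 and 0.0463), beside 1174 and 2000 of the 18079 genes.

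In unablated eyes cybb, cyba and ncf1 overlapped between the times. Their log2 fold changes were -0.07 (SE 0.39), -0.31 (SE 0.41) and -0.04 (SE 0.44). Without unablated replicate 3 at 2 dpi those of cyba and ncf1 were 0.41 and 0.87, and without unablated replicate 3 at 4 dpi that of ncf1 was 0.04. Of the 4 genes 0 were called by edgeR, beside 0.868% of all genes, and 0 by DESeq2 or limma voom (1402 and 382 genes in all). One, ncf4, had an unadjusted p under 0.05, as did 15.2% of all genes. It was also the 1 gene of 4 without overlap in TPM, as were 20.2% of all genes (15.2% higher and 5.06% lower at 4 dpi).

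The ablation effect was not shown to differ between 4 and 2 dpi for any subunit gene. The difference of the log2 fold changes, 4 dpi minus 2 dpi, was 0.29 for cybb (SE 0.55, interval -0.78 to 1.36) and -0.25 for cyba (SE 0.58, interval -1.39 to 0.89). It was 0.40 for ncf1 (SE 0.63, interval -0.84 to 1.63) and 0.06 for ncf4 (SE 0.25, interval -0.43 to 0.55). edgeR called 0 of 4 and 0 of 18079 genes (0%), with 0 of 4 and 5.86% of all genes at an unadjusted p under 0.05. DESeq2 and limma voom called 0 of 4, beside 80 and 0 of all genes. All adjusted p of the 4 genes lay between 0.966 and 0.990 (edgeR). The intervals for cybb, cyba and ncf1 allow differences of more than 1.5-fold in either direction.

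The genes around the oxidase were examined as lists written with earlier results of these data known. Of 26 partners and regulators analysed, 26 were tested at 4 dpi, where edgeR called 0, with 8 at an unadjusted p under 0.05 (20.7% of all genes). DESeq2 called 2 higher and 3 lower (1162 and 1142 over all genes), and limma voom 1 higher and 3 lower (768 and 785). In TPM 4 were higher and 7 lower without overlap, against 15.2% of all genes in each direction, and the median log2 fold change was -0.02. rac2 and cybc1 are named for their roles, after their values were seen. The Rac GTPase gene rac2, whose product joins the assembled enzyme, stood at 229, 226 and 266 TPM in ablated and at 283, 314 and 246 TPM in unablated libraries (log2 ratio -0.20, SE 0.16, edgeR adjusted p = 0.575). The chaperone gene cybc1, needed for NOX2 maturation in mammals, stood at 131, 131 and 150.2 TPM in ablated and at 169, 166 and 195 TPM in unablated libraries (-0.33, SE 0.14, edgeR adjusted p = 0.255). The smallest p of the list belonged to the protein kinase C gene prkcbb (-0.74, SE 0.16, edgeR adjusted p = 0.0594) and the Rac exchange factor gene vav2 (-1.28, SE 0.31, edgeR adjusted p = 0.0745), neither past the threshold. With the epithelial share as a covariate they stood at 0.13 and -0.13 (edgeR adjusted p = 0.703 and 0.926).

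At 2 dpi edgeR called 0 of those 26 (6 at an unadjusted p under 0.05), while DESeq2 and limma voom each called 2 higher and 1 lower. Over all genes DESeq2 called 883 higher and 591 lower, and limma voom 803 higher and 173 lower. Of the 26, 14 were above 0, against 45.8% of all genes, with a median of 0.08, or -0.07 with DESeq2's size factors and -0.13 scaled to macrophage identity counts. The smallest p there belonged to prdx6, a peroxiredoxin gene, at 327, 406 and 305 TPM in ablated and 116, 129 and 167 TPM in unablated libraries (log2 ratio 1.16, SE 0.22, edgeR adjusted p = 0.0896). The kinase gene pak1 was next, at 0.378, 0.422 and 0.421 TPM in ablated and 1.62, 1.60 and 2.84 TPM in unablated libraries (-2.49, SE 0.56, edgeR adjusted p = 0.114). DESeq2 called both (adjusted p = 0.00263 for prdx6 and 5.92e-05 for pak1), as did limma voom (0.0245 and 0.0430). Other genes of the NADPH oxidase family, with the organiser and activator genes noxo1a, noxo1b and noxa1, were mostly below the expression filter. Of 8 genes found, 3 passed the filter at 2 dpi and 1, the activator gene noxa1, at 4 dpi. nox1 stood at 0.201, 0.405 and 0.0402 TPM in ablated and at 0.215, 0 and 11.2 TPM in unablated libraries at 2 dpi (-4.35, SE 2.42, edgeR adjusted p = 0.428). The high library was unablated replicate 3, and without it the log2 fold change was 0.78. noxo1b at 2 dpi (-2.31, SE 2.58, edgeR adjusted p = 0.644) and noxa1 at 4 dpi (1.52, SE 1.55, edgeR adjusted p = 0.667) did not pass.

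NADPH for the oxidase comes from the enzymes of the pentose phosphate pathway and others that reduce NADP. At 4 dpi 2 of 14 genes of NADPH supply rose and 0 fell in ablated eyes. Of the 14, 10 were above 0, against 47.4% of all genes, with a median log2 fold change of 0.45. The 6-phosphogluconate dehydrogenase gene pgd, whose product makes NADPH, stood at 606, 579 and 589 TPM in ablated and at 279.6, 299 and 365 TPM in unablated libraries (0.94, SE 0.14, edgeR adjusted p = 0.0301). The transaldolase gene taldo1 stood at 639.8, 701 and 659 TPM in ablated and at 338, 294 and 428 TPM in unablated libraries (0.94, SE 0.15, edgeR adjusted p = 0.0333). Both genes were higher in all 3 ablated libraries than in any unablated one. Scaled to macrophage identity counts, 1 of the 14 was called, with a median of 0.34.

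At 2 dpi edgeR called 0 of the 14 NADPH supply genes (9 at an unadjusted p under 0.05), while DESeq2 and limma voom each called 4 higher and 0 lower. Of the 14, 12 were above 0 and 10 were higher without overlap, against 45.8% and 22.1% of all genes, and the median was 0.73. pgd stood at 656, 842 and 861 TPM in ablated and at 245, 303 and 269.5 TPM in unablated libraries (log2 ratio 1.36, SE 0.17, edgeR adjusted p = 0.0726). The ribose-5-phosphate isomerase gene rpia stood at 16.8, 22.3 and 24.3 TPM in ablated and at 4.56, 6.22 and 6.54 TPM in unablated libraries (1.70, SE 0.28, edgeR adjusted p = 0.0839). DESeq2 called both (adjusted p = 1.35e-07 for pgd and 9.00e-05 for rpia), as did limma voom (0.0245 and 0.0297). Scaled to macrophage identity counts, 9 of the 14 were above 0 at 2 dpi with a median of 0.32, and 12 of 14 exceeded the median of all genes under either scaling.

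Among genes that remove superoxide and peroxide, 1 of 18 tested at 4 dpi rose and 0 fell, with 14 above 0 and a median log2 fold change of 0.41. The mitochondrial superoxide dismutase gene sod2 stood at 119, 171 and 150.4 TPM in ablated and at 70.0, 74.9 and 68.0 TPM in unablated libraries (1.07, SE 0.16, edgeR adjusted p = 0.0308). The mitochondrial peroxiredoxin gene prdx3 (0.75, SE 0.16, edgeR adjusted p = 0.0560) and the glutathione peroxidase gene gpx1a (0.67, SE 0.14, edgeR adjusted p = 0.0572) were close to the threshold without passing it. With DESeq2's size factors 3 of the 18 were called, and with macrophage identity scaling 0. At 2 dpi edgeR called 0 of 18 (2 at an unadjusted p under 0.05), DESeq2 1 higher and 1 lower, and limma voom 2 higher and 1 lower. Of the 18, 11 were above 0 with a median of 0.07, or -0.20 with 4 above 0 when scaled to macrophage identity counts. The lipid peroxide reductase gene gpx4a stood at 13.8, 9.18 and 8.43 TPM in ablated and at 38.3, 34.5 and 28.5 TPM in unablated libraries at that time (-1.85, SE 0.33, edgeR adjusted p = 0.0845), below every unablated library. DESeq2 and limma voom called it (adjusted p = 1.11e-05 and 0.0257).

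Receptors and signalling genes upstream of the oxidase were mixed at 4 dpi: 1 of 24 tested rose and 3 fell, with a median log2 fold change of -0.08. The integrin gene itgam stood at 4.44, 12.6 and 6.42 TPM in ablated and at 44.5, 41.4 and 37.3 TPM in unablated libraries (-2.39, SE 0.36, edgeR adjusted p = 0.0308). The Toll-like receptor gene tlr4bb stood at 7.85, 5.35 and 5.83 TPM in ablated and at 29.9, 28.1 and 22.5 TPM in unablated libraries (-2.05, SE 0.25, edgeR adjusted p = 0.0222). The adaptor gene myd88, which carries signals from most Toll-like receptors, stood at 58.4, 65.1 and 81.4 TPM in ablated and at 138, 145 and 149.9 TPM in unablated libraries (-1.05, SE 0.18, edgeR adjusted p = 0.0365). The flagellin receptor gene tlr5a went the other way, at 20.1, 16.0 and 20.5 TPM in ablated and 7.85, 7.37 and 6.65 TPM in unablated libraries (1.41, SE 0.22, edgeR adjusted p = 0.0328). With the epithelial share as a covariate in the fit of all 12 libraries itgam stood at -1.29, tlr4bb at -1.03 and tlr5a at 0.68 (edgeR adjusted p = 0.338, 0.446 and 0.742). The value of myd88 in that fit is not given here. Without the covariate the fit of all 12 libraries called 222 genes at 4 dpi (25 lower), against 605 (307 lower) with 6 libraries. The part of the covariate in the lost calls was not tested.

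At 2 dpi edgeR called 0 of 23 tested receptor and signalling genes (5 at an unadjusted p under 0.05), DESeq2 1 higher and 1 lower, and limma voom 1 higher and 0 lower. Of the 23, 10 were above 0 with a median of -0.13. By p the first were the second flagellin receptor gene tlr5b (log2 ratio 1.76, SE 0.45, edgeR adjusted p = 0.140) and the Fc receptor gamma chain gene fcer1gl (0.75, SE 0.21, edgeR adjusted p = 0.164). tlr5b stood at 7.47, 21.2 and 14.7 TPM in ablated and at 4.49, 4.20 and 2.58 TPM in unablated libraries, without overlap. DESeq2 called tlr5b (adjusted p = 0.0294) and limma voom called fcer1gl (adjusted p = 0.0405).

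Of the myeloid transcription factor genes 1 of 13 tested rose and 1 fell at 4 dpi, with a median log2 fold change of 0.10. cebpa stood at 818, 868 and 757 TPM in ablated and at 551, 597 and 577 TPM in unablated libraries (0.53, SE 0.10, edgeR adjusted p = 0.0464). cebpd stood at 9.71, 12.2 and 15.7 TPM in ablated and at 94.1, 82.5 and 39.5 TPM in unablated libraries (-2.49, SE 0.39, edgeR adjusted p = 0.0321). At 2 dpi edgeR called 0 of 12 (2 at an unadjusted p under 0.05), DESeq2 0 and limma voom 1, higher, with a median of 0.14, or -0.02 with DESeq2's size factors and -0.31 scaled to macrophage identity counts. spi1b, which encodes PU.1, a factor that binds the CYBB promoter in human myeloid cells, stood at 659, 683 and 473 TPM in ablated and at 334, 305 and 198 TPM in unablated libraries at 2 dpi (0.95, SE 0.26, edgeR adjusted p = 0.156, limma voom adjusted p = 0.0420). cebpb was second by p (0.50, SE 0.19, edgeR adjusted p = 0.264). The part of spi1b in the level of cybb was not tested. The calls of single genes at 4 dpi rested on few libraries: edgeR called 0 genes in all without ablated replicate 1 or 3, and 5, 38 and 24 without unablated replicates 1, 2 and 3. Without ablated replicate 2 it called 1420.

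**Figure D5:**
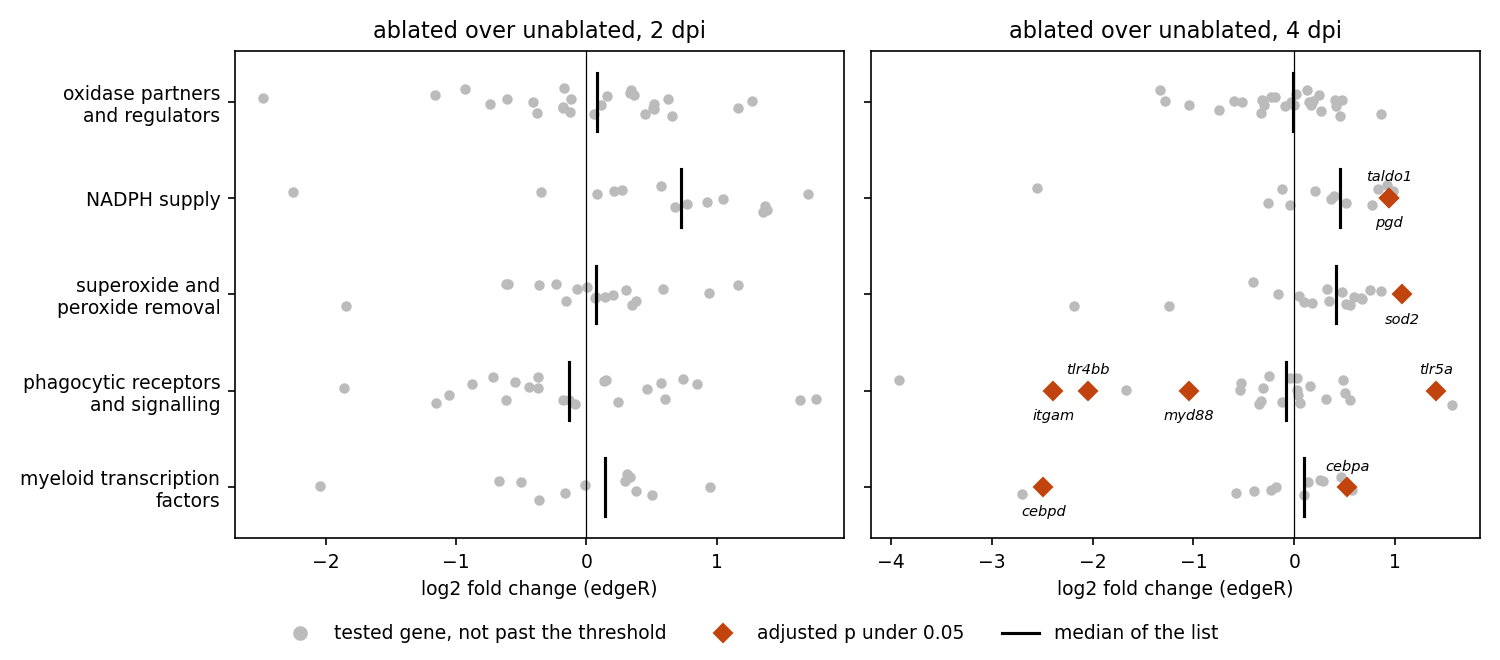
Log2 fold change (x axis) of the tested genes of 5 lists around the oxidase (y axis), ablated over unablated, at 2 dpi (left) and 4 dpi (right). Diamonds mark genes with an edgeR adjusted p under 0.05 and vertical lines the median of each list, which for NADPH supply is 0.73 at 2 dpi and 0.45 at 4 dpi.

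Each subunit gene had other close companions across the 12 libraries. The measure was Pearson's r on log2 CPM (counts scaled to library size) over 7846 genes. It is given as a description, since libraries share condition and date and differ in their marker shares. For cybb the 5 highest were xpnpep2 (r = 0.94), tek (0.92), nadka_2 (0.91), atp8b5a (0.90) and wls (0.89). For cyba they were the actin gene actb1 (0.98), nras (0.96), gsna (0.95), b3gnt2b (0.95) and arhgdig (0.95). For ncf1 they were gm2a (0.97), ankrd22 (0.97), xirp2a (0.97), fybb (0.96) and vps9d1 (0.95), and for ncf4 NCKAP1L (0.95), foxj2 (0.95), ephx2 (0.94), slc11a2 (0.94) and eef1g (0.94). No gene was on more than one of these lists. Each list holds the highest r of 7846 genes, so high values follow in part from the choice. With group means removed, r fell to 0.68 for ncf4 with foxj2, 0.75 with ephx2 and 0.81 with eef1g. It fell to 0.77 for cybb with wls and was 0.85 to 0.98 for the other pairs.

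The subunit genes themselves were unequally alike. Over the 12 libraries r was 0.61 between cyba and ncf1, 0.65 between cybb and ncf4, and 0.32 between cybb and cyba. It was -0.17 between cybb and ncf1, -0.12 between cyba and ncf4, and -0.07 between ncf1 and ncf4. Among the genes compared with cybb, cyba lay at percentile 61.3 and ncf4 at 91.8. Among those compared with cyba, ncf1 lay at percentile 90.9. With group means removed, r was 0.93 between cyba and ncf1, 0.68 between cybb and cyba, and 0.68 between cybb and ncf4. It was then 0.44 between cybb and ncf1, 0.41 between cyba and ncf4, and 0.19 between ncf1 and ncf4. These r pool the groups: in ablated 2 dpi and in unablated 4 dpi libraries, the library highest in cybb was the lowest in ncf1. The SD of cyba in TPM was 69.1% of the mean in unablated 2 dpi libraries and 6.15% to 9.67% in the other groups. For ncf1 it was 78.1% there and 9.67% to 19.8% elsewhere. With group means removed, any r of cyba or ncf1 thus rests largely on those 3 libraries. The place of such r among all genes was not computed. Of the partner genes, rac2 and cybc1 had an r of 0.94 and 0.90 with cyba (percentiles 99.9 and 99.7). With ncf1 they had 0.51 and 0.75, with cybb 0.31 and 0.22, and with ncf4 -0.09 and -0.15. The macrophage gene mpeg1.1 had 0.16 with cybb, 0.52 with cyba, 0.41 with ncf1 and 0.06 with ncf4. The epithelial gene epcam had an r of 0.84 with ncf1, 0.52 with cyba, -0.33 with cybb and -0.34 with ncf4. These epcam values lay at percentiles 97.3, 86.2, 20.6 and 16.9. After the group means were removed those of epcam were 0.79, 0.66, 0.34 and 0.12, so the sign turned for cybb and ncf4. The transcription factor gene spi1b had an r of 0.40 with cybb, -0.40 with cyba, -0.49 with ncf1 and 0.77 with ncf4. With group means removed its r was negative with each of them, at -0.49, -0.71, -0.81 and -0.19.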

How the data were processed

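The authors deposited raw counts and TPM values (scaled by gene length and depth) for 25281 genes, as 2 tables, 1 per time. The 24 count and TPM columns of the 12 libraries were all read. GRCz11 is named in the submitters' processing notes. The sources used here do not say which aligner or counter made the values. TPM was normalised within each library, so TPM levels set across the times come from separate tables, while tests between times used counts scaled over all 12 libraries. The libraries, made with SMART-Seq HT and Nextera XT per the labels' protocols, do not mark strand. Sequences were not used here. 1 gene is not reported here. Libraries of a group differed from each other by more than sampling noise, so all 12 were kept.

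Counts were tested with edgeR 4.0.16 (quasi-likelihood, robust, TMM, default expression filter) in R 4.3.3, with Benjamini-Hochberg adjustment over all genes tested and a threshold of 0.05. Ablation effects used the 6 libraries of a time, and contrasts between times used all 12. Standard errors were taken from the F statistic, and 95% intervals are normal approximations, which with so few libraries are narrower than the tests allow. The fits were first tested on simulated counts. Named genes were the 4 members and, per list and time, up to 4 called genes with the largest change, or, where fewer than 2 were called, the 2 smallest p. Likeness compared genes with a mean of at least 10 CPM (prior count 2) and took the 5 highest r. Members, lists and rules were chosen with earlier results of these data known. The 15 lists hold 376 symbols, of which 357 were found, 11 through the reference name tables. The 9 marker lists include RPE, lymphocyte and NK, and erythrocyte and thrombocyte markers, whose summed shares were at most 0.391%, 0.00893% and 0.00964% of counts.

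Alternatives were DESeq2's size factors, scaling to macrophage identity counts, no filter, a strict filter (1 CPM in 3 libraries and a mean of 50 counts), DESeq2 1.42.0, limma 3.58.1 with voom quality weights, limma on log2(TPM + 1) and log2(TPM + 0.1) filtered to genes that reach 1 TPM in 3 libraries, or unfiltered, a replicate block, other sets of libraries, and omission of each library. 2 fits with the epithelial or photoreceptor share as a covariate were added after the data were seen. At 2 dpi the same replicate number means the same date in the titles, so the block there compares within dates; what the date marks is not given. After group means were removed, the same-numbered libraries of 2 dpi had r = 0.59, 0.03 and 0.57, against -0.59 to 0.20 for differently numbered ones. At 4 dpi all libraries carry 1 date and the numbers were not taken to pair them.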

Additional observations from a re-analysis of the deposited data

How the results depend on the processing

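Values here are log2 differences and numbers of genes called. Of 384 alternative values for the 4 subunit genes over the 5 comparisons, 325 kept both direction and call and 41 turned direction. None of the 41 had passed the test in the first place. Another 13 lost a call and 5 gained one. All 13 lost calls were of ncf1 at 4 dpi, the 1 call among the 20 main results. The other results had no call to lose, so for them a kept call means that they stayed uncalled. For the other named genes 323 of 466 kept both, 87 lost a call, 52 gained one and 4 turned. The cause of these changes was not tested. At 4 dpi ncf1 lost its call when scaled to macrophage identity counts (-0.81), on log2(TPM + 1) (-0.74, with or without the filter), on log2(TPM + 0.1) (-0.74), with all 12 libraries (-0.71) and with the epithelial (-0.0755) or photoreceptor (-0.72) share as a covariate. Leaving out single libraries gave -0.74 to -0.64. cybb gained a call with DESeq2 (1.02) and voom (1.05), and cyba with DESeq2 (-0.35), while the epithelial covariate turned cyba to 0.30 and prkcbb to 0.13. At 2 dpi ncf4 turned to -0.0908 when scaled to macrophage identity counts, and cyba turned with voom (0.21), log2(TPM + 1) with or without the filter (0.28), log2(TPM + 0.1) (0.28) and the epithelial covariate (0.55). Leaving out single libraries gave -0.66 to 0.55 for cyba and -5.11 to 0.78 for nox1, which voom turned to 2.42, and the photoreceptor covariate turned noxo1b to 3.102.

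Between times in ablated eyes ncf4 gained a call with DESeq2 (0.69) and voom (0.55), and cybb ranged from -0.0196 (without ablated replicate 1 at 2 dpi) to 0.46 with libraries left out. In unablated eyes voom turned cyba (0.0698) and ncf1 (0.57). TPM did so for cybb (0.22), cyba (0.17) and ncf1 (0.47) with either pseudocount and without the filter. With libraries left out cybb ranged from -0.41 to 0.17, cyba from -0.71 to 0.41 and ncf1 from -0.41 to 0.87. For the difference of the ablation effect, ncf1 turned with voom (-0.10) and on every TPM scale (-0.0102), and ncf4 turned on log2(TPM + 1) with or without the filter (-0.0553) and on log2(TPM + 0.1) (-0.0628). With libraries left out, cyba ranged from -0.88 to 0.15, ncf1 from -0.42 to 0.77 and ncf4 from -0.0584 to 0.16.

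With the replicate block, which compares within dates at 2 dpi, cyba stood at 0.10 at 2 dpi, and at 4 dpi, where the numbers mark nothing known, ncf1 stood at -0.71 (edgeR adjusted p = 0.120) and 0 genes were called. At 4 dpi same-numbered libraries had r = -0.16, -0.40 and -0.14. Between times the block joined libraries of both times by replicate number alone, across different dates, so it matched nothing known. In unablated eyes it gave 0.0261 for cybb and 0.13 for ncf1 between times. The block changed no other call of a subunit gene.

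Counts over all genes moved by more than 1.5 times under several settings. The 605 genes at 4 dpi became 378 with macrophage scaling, 2304 with DESeq2, 1553 with voom, 1181 on log2(TPM + 1), 222 with all 12 libraries, 349 and 388 with the covariates and 0 to 1420 with a library left out. The 0 genes at 2 dpi became 1474 with DESeq2, 976 with voom, 163, 7 and 271 on the TPM scales, 1142 with all 12 libraries and 1956 and 718 with the covariates. The 234 genes between times in ablated eyes ranged from 0, without any 1 of the 6 ablated libraries other than replicate 1 at 2 dpi, to 2000 with voom. The 157 in unablated eyes ranged from 0, with only the 6 unablated libraries, to 1402 with DESeq2, and the 0 of the difference reached 80 with DESeq2. Every subunit value rests on 585 or more counts, with 3 libraries a group.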
